A study of Selaginella nipponica with 6 samples.

Results

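The most abundant unigenes that both the prostrate and the erect shoots of *Selaginella nipponica* expressed were described here. Unigenes, the longest assembled transcript of each gene, were selected on their level in 6 libraries. The level was the CPM, the count of a unigene divided by the total of its library and multiplied by 1000000, with estimated counts rounded to whole numbers. The 150 unigenes with the highest mean CPM were taken, and those whose mean in the erect shoots was 4 or more times, or 0.25 or less of, the mean in the prostrate shoots were dropped. This left 134 of the 206768 unigenes of the series and dropped 16, of which 14 were higher in the erect and 2 in the prostrate shoots. The levels and the ratio between the types of shoots therefore chose the members, and both are given below as a description without a test.

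*Selaginella nipponica* is a lycophyte, a spore-bearing vascular plant, with creeping prostrate shoots and upright erect shoots. The plants came from 1 wild population and had received no treatment. The prostrate shoots, with emerging roots, gave 3 libraries labelled vegetative, and the erect shoots, with their sporangia, gave 3 libraries labelled reproductive. Replicates were subsamples of each harvest, so p-values and SDs measure only the spread between such subsamples. The prostrate libraries held between 15679144 and 17584114 counts, and the erect libraries between 18001138 and 20243960. In libraries of whole shoots, fewer cells of a type and less RNA per cell cannot be told apart.

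In green shoots a small part of the genes commonly supplies a large part of the messenger RNA. Well-known examples are the small subunit of Rubisco, the enzyme that fixes carbon dioxide, the chlorophyll-binding proteins of the light-harvesting antenna, and the factors that carry transfer RNA to the ribosome. The deposited table pairs no unigene with a gene name, so none of the members could be matched to such a function, and no tissue marker could be looked up. Unigenes carry their Trinity identifiers without the common prefix, in which c and g number the component, a set of transcripts that share sequence, and the gene within it. None of the 18 unigenes that the text of the paper names was a member. The highest standing of these was rank 182, held by DN103335_c1_g1, an *SPL* gene (SQUAMOSA PROMOTER-BINDING PROTEIN-LIKE, a family of transcription factors), at a mean of 539 CPM over the 6 libraries.

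Together the 134 unigenes held 18.0, 17.3 and 19.8% of the counts of prostrate replicates 1, 2 and 3, a mean of 18.4% ± 1.26 (SD, n = 3). In erect replicates 1, 2 and 3 they held 15.2, 14.1 and 13.7%, a mean of 14.3% ± 0.787 (SD, n = 3). Every prostrate library thus gave a larger share of its counts to these unigenes than any erect library. The 16 dropped unigenes took 0.328, 0.353 and 0.223% of the prostrate and 3.31, 3.68 and 2.90% of the erect libraries. Over the whole top 150 the shares were 18.7% ± 1.20 (SD, n = 3) for prostrate and 17.6% ± 0.969 (SD, n = 3) for erect libraries, and there the libraries of both types overlapped. The 10 most abundant members alone held 4.17% ± 0.551 (SD, n = 3) and 3.41% ± 0.548 (SD, n = 3).

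**Figure D1:**
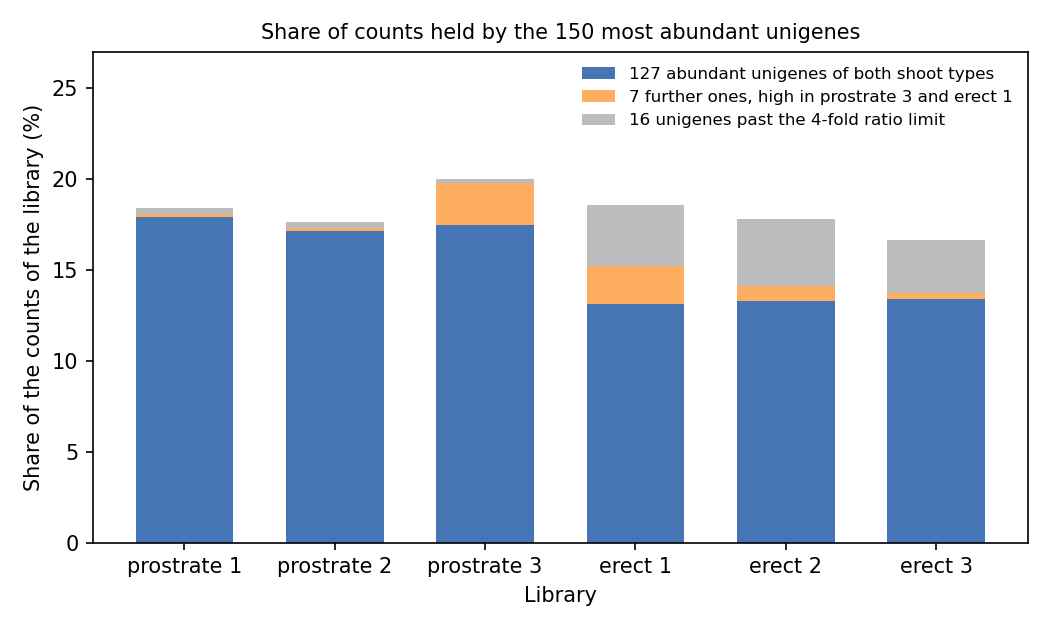
Share of the counts of each library (%, y axis) held by the 150 most abundant unigenes in 6 libraries (x axis). Blue bars are 127 of the members, orange bars are the 7 members that were high in prostrate replicate 3 and erect replicate 1, and grey bars are the 16 unigenes past the ratio limit. The blue part is between 17.1 and 17.9% in the prostrate and between 13.1 and 13.4% in the erect libraries.

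Among the members were 7, described further below, that were singled out for their differences between replicates. The other 127 held 17.9, 17.1 and 17.5% of prostrate replicates 1, 2 and 3 and 13.1, 13.3 and 13.4% of erect replicates 1, 2 and 3. The means were 17.5% ± 0.406 (SD, n = 3) and 13.3% ± 0.141 (SD, n = 3), where a smaller spread follows from how the 7 were singled out. Counts were also spread over more unigenes in the erect shoots. Of all counts, 25% were held by the 232, 242 and 204 most abundant unigenes of prostrate replicates 1, 2 and 3, and by 260, 281 and 309 in erect replicates 1, 2 and 3.

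Membership of the top 150 was not the same in every library. Of the 134 members, 60 were among the 150 most abundant unigenes of each of the 6 libraries, and 109 were among the first 300. The lowest standing of a member in any library was rank 3507, with 1317 counts and 71.9 CPM for DN100770_c0_g3 in erect replicate 3. Counting noise was therefore small for all members. Across the 134 members, which are not independent of each other, Spearman's rho of the levels was between 0.514 and 0.817 within the prostrate type and between 0.628 and 0.863 within the erect type. Across the types it was between 0.285 and 0.682. Transcript lengths were not used here, so a higher CPM of one unigene than of another also reflects length.

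DN101362_c1_g1, first by mean CPM over the 6 libraries, had 8836, 8158 and 9619.6 CPM in prostrate replicates 1, 2 and 3 and 5141, 5615 and 5236 CPM in erect replicates 1, 2 and 3. All prostrate libraries were above all erect libraries, and the ratio of the erect to the prostrate mean was 0.601. On the scale of TMM, a scaling that edgeR computes from the bulk of the unigenes, this was a log2 fold change of -0.84 with a standard error of 0.16, where negative values are lower in the erect shoots. It was not the first in every library. In erect replicate 1 its 104076 counts were exceeded by DN102764_c2_g3 with 165308 and DN100488_c1_g1 with 107620. The dropped DN105641_c1_g1 with 124038 counts also exceeded it there, and the dropped DN102912_c0_g5 did so in all 3 erect libraries. Leaving out 1 library at a time, the log2 fold change of DN101362_c1_g1 was between -0.90 and -0.80.

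DN105069_c1_g2 followed with 7690.4, 5738 and 7775 CPM in replicates 1, 2 and 3 of the prostrate and 4328, 4064 and 4541 CPM in those of the erect shoots, again without overlap (log2 fold change of -0.82 with a standard error of 0.18). DN105069_c1_g5, of the same Trinity component, had 3926, 2341 and 3632 CPM and 1924, 1990.0 and 2452 CPM, and here prostrate replicate 2 lay below the highest erect library. This was the only component with more than 1 member, since the 134 members lay in 133 components. The level of the second relative to the first was 0.511, 0.408 and 0.467 in prostrate replicates 1, 2 and 3 and 0.445, 0.490 and 0.540 in erect replicates 1, 2 and 3, so the pair kept a similar proportion in all libraries. As both belong to 1 component, reads that fit either could have been shared out by the counting, and both values are uncertain.

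Among the other members of the first 12, DN106529_c10_g1, DN101284_c1_g2 and DN102274_c2_g1 were also lower in the erect shoots without overlap. DN106529_c10_g1 had 3877, 3733 and 3126 CPM in prostrate replicates 1, 2 and 3 and 2169, 2987 and 2988 CPM in erect replicates 1, 2 and 3. For DN101284_c1_g2 the values were 4249.8, 3925 and 3023 CPM and 1217, 1810.1 and 2391 CPM. DN102274_c2_g1 had 2189, 2683 and 5758 CPM and 977, 1121 and 1126 CPM. In the last of these the prostrate mean rested largely on replicate 3, whereas the erect libraries were close to each other (log2 fold change of -1.83 with a standard error of 0.36). With a library left out its log2 fold change lay between -2.11 without prostrate replicate 1 and -1.33 without prostrate replicate 3.

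Other members of the first 12 had overlapping groups. DN105020_c1_g1 had 3884, 5045 and 3216 CPM in prostrate replicates 1, 2 and 3 and 3294, 3073 and 3087 CPM in erect replicates 1, 2 and 3. DN100452_c0_g2 had 4513, 1409 and 4765 CPM and 3488, 3438 and 2969 CPM, so that prostrate replicate 2 stood below all other libraries. DN101275_c3_g1 had 2433, 2557 and 1993 CPM and 2207, 2187 and 2186 CPM, the steadiest erect values of all members, with a coefficient of variation (CV, the SD divided by the mean) of 0.00536. The members of the first 12 with a higher mean in the erect shoots were DN101917_c0_g2, DN100488_c1_g1 and DN102764_c2_g3. In DN101917_c0_g2 the CPM was 3797, 2797 and 2267 for prostrate and 4830.1, 4285 and 2636 for erect replicates 1, 2 and 3, and in DN100488_c1_g1 it was 1692, 1928 and 2319.7 and 5316, 3186 and 1543. Erect replicate 3 lay within the range of the prostrate libraries in the first and below all of them in the second.

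**Figure D2:**
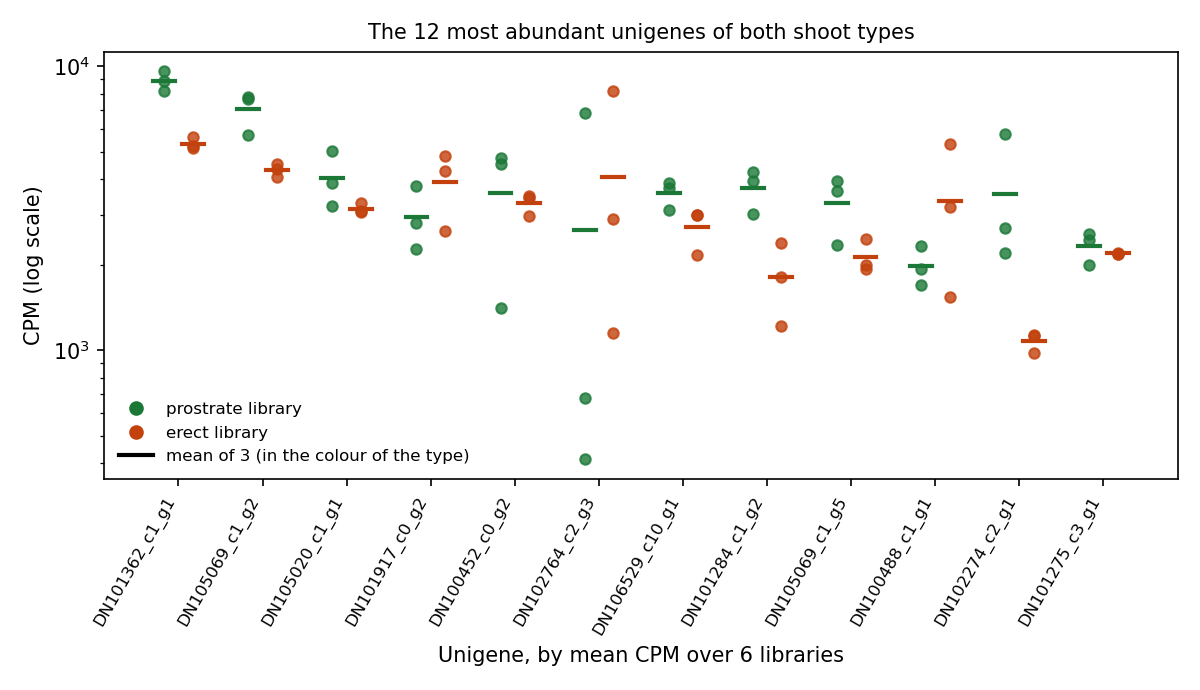
CPM on a log scale (y axis) of the 12 members with the highest mean CPM (x axis), with 1 point for each of 3 prostrate libraries (green) and 3 erect libraries (orange-red) and a line at the mean of each type. The first unigene has between 8158 and 9619.6 CPM in the prostrate and between 5141 and 5615 CPM in the erect libraries, whereas the points of DN102764_c2_g3 are spread widely within both types.

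Over the 134 members, the mean level was lower in the erect than in the prostrate shoots for 99 (73.9%) and higher for 35. Of all 23275 unigenes that passed a filter on low counts, 43.7% were lower. The ratio of means was under 0.8 in 69 members, between 0.8 and 1.25 in 46 and over 1.25 in 19. It was under 0.5 in 16 and over 2 in 2. The median log2 fold change of the members was -0.49, with quartiles of -0.82 and -0.09, beside -0.01 and quartiles of -0.49 and 0.50 over all tested unigenes. Scaling by library totals instead of TMM moved the median of all tested unigenes to 0.10 and that of the members to -0.38. Such a change of scaling shifts all unigenes by nearly the same amount, so it cannot test the distance of the members from the bulk. With the 16 dropped unigenes left out of the totals, the median log2 ratio of the members was -0.33.

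For comparison with less abundant unigenes, the tested unigenes were grouped by rank of mean CPM, and those at or past the 4-fold ratio were dropped from each class as they were from the members. The median log2 fold change was -0.49 for the 134 members, -0.26 for 323 unigenes of ranks 151 to 500 and -0.12 for 1435 of ranks 501 to 2000. It was -0.05 for 5731 unigenes of ranks 2001 to 8000 and -0.0032 for the 13068 tested unigenes of lower rank. With library totals the medians in the same order were -0.38, -0.15, -0.0044, 0.06 and 0.11. Without the ratio limit, which removed 14 unigenes higher in the erect and 2 higher in the prostrate shoots from the top 150, a comparison added after seeing the data, the medians on the TMM scale were -0.33, -0.24, -0.10, -0.04 and 0.04. The limit thus lowered the value of the first class most, and rank and ratio both chose the members, so these medians are a description. A change of scaling moves all classes nearly alike, so their order could hardly differ between scalings. The order was also the same without the ratio limit. The sign of the lowest classes depended on the scaling or the limit. The ratio limit removed 10.7, 7.71, 4.33, 4.37 and 14.5% of the tested unigenes of these classes.

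**Figure D3:**
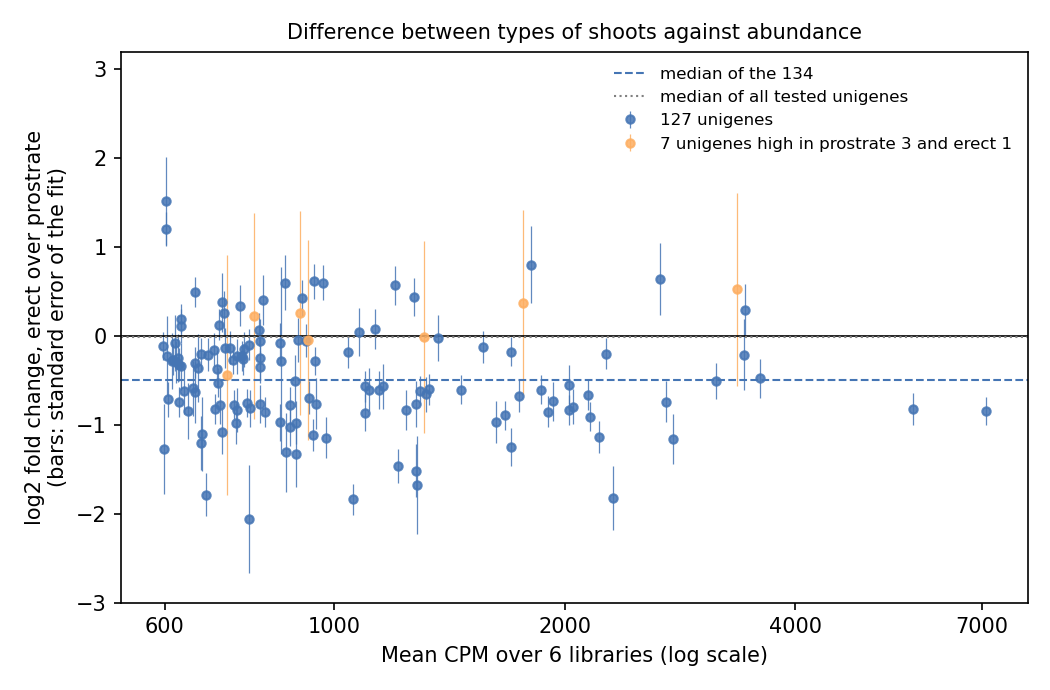
Log2 fold change of erect over prostrate shoots (y axis, bars show the standard error of the fit) against mean CPM over 6 libraries on a log scale (x axis) for the 134 members, with the 7 that were high in prostrate replicate 3 and erect replicate 1 in orange. The dashed line at -0.49 is the median of the members and the dotted line at -0.01 that of all tested unigenes.

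In the fit of edgeR over all tested unigenes, 43 members had an adjusted p under 0.05 and a lower level in the erect shoots, beside 6.48% of all tested unigenes. In the other direction it was 1 member, DN101133_c2_g1, beside 8.61%. With an absolute log2 fold change above 1 as a further condition, 14 members were lower, beside 5.31%, and the same 1 was higher in the erect shoots, beside 7.94%. All prostrate libraries were above all erect libraries in 55 members, beside 13.5% of all tested unigenes, and all erect above all prostrate in 12, beside 23.2%. The rule that chose the members used this contrast, so nothing is read from these counts. The 43 became 14 without prostrate replicate 1, 6 without erect replicate 1, 4 without erect replicate 2 and 23 without erect replicate 3, and the 14 became 6 without erect replicate 1 and 4 without erect replicate 2. Without prostrate replicate 3, 3 members instead of 1 were higher in the erect shoots under either condition. Those higher in the erect shoots without overlap were then 21 instead of 12. Leaving out a library can only keep or raise a count without overlap, so nothing is read from this rise.

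The members with the lowest ratios among those without overlap were led by DN103642_c0_g2, with 1446, 1369 and 874 CPM in prostrate replicates 1, 2 and 3 and 98.1, 246 and 611 CPM in erect replicates 1, 2 and 3. Its ratio of 0.259 was the closest to the lower limit of all members, and its erect libraries differed from each other several-fold (log2 fold change of -2.06 with a standard error of 0.60). Its log2 fold change lay between -2.95 without erect replicate 3 and -1.61 without erect replicate 1. DN102893_c0_g1 had a similar ratio with little spread, at 1706, 1429 and 1742 CPM and 539, 461 and 474 CPM (log2 fold change of -1.84 with a standard error of 0.17). DN104359_c1_g1 had 909.8, 1269 and 927 CPM in prostrate and 256, 328 and 392 CPM in erect replicates 1, 2 and 3. Means of 1852 ± 512 and 701 ± 197 CPM (SD, n = 3) were found for DN101703_c0_g3, and of 1742 ± 266 and 682 ± 74.7 CPM for DN101975_c1_g1. These members were picked for a low ratio without overlap, so the distance between the types of shoots is no finding. Of the 2 unigenes dropped on this side, DN102377_c1_g1 lay just outside the limit, with a ratio of 0.237, and DN100630_c1_g1 farther from it, with 0.143.

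On the side of the erect shoots, DN99304_c0_g2 had the highest ratio, 3.07, with 248, 107 and 533 CPM in prostrate replicates 1, 2 and 3 and 983, 969 and 777 CPM in erect replicates 1, 2 and 3. The prostrate libraries of this unigene differed widely, with replicate 2 the lowest and replicate 3 the highest (log2 fold change of 1.52 with a standard error of 0.50). The log2 fold change lay between 1.11 without prostrate replicate 2 and 2.22 without prostrate replicate 3. DN101133_c2_g1 followed with 342, 313 and 381 CPM and 721, 845 and 1010.5 CPM, and its erect mean was 2.49 times the prostrate one (log2 fold change of 1.21 with a standard error of 0.19). No other member had a ratio over 2. The next unigenes beyond the upper limit were DN101695_c1_g1, with a ratio of 6.26, and DN106370_c1_g2, with 9.67. Among the remaining members without overlap, DN101599_c1_g2 had 709 ± 108 and 1174 ± 140.5 CPM (SD, n = 3), and DN102727_c0_g1 had 734 ± 92.6 and 1198 ± 191 CPM. DN104856_c1_g2 had 925 ± 213 and 1476 ± 221 CPM, and DN97712_c2_g1 had 522 ± 45.5 and 792 ± 79.6 CPM. These had the next highest ratios, between 1.52 and 1.65, among the 12 members that were higher in the erect shoots without overlap. Some members whose groups overlapped had higher ratios than these, such as 1.88 for DN106540_c2_g1.

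At the other end were members with nearly equal means. DN103436_c2_g1 had 559, 589.6 and 643 CPM in prostrate replicates 1, 2 and 3 and 614, 589 and 585 CPM in erect replicates 1, 2 and 3, a ratio of 0.998. DN96263_c4_g1 had 770.2 ± 105 and 776 ± 37.7 CPM (SD, n = 3), DN103393_c3_g1 1569 ± 184 and 1556 ± 193 CPM, DN106438_c6_g1 735 ± 94.7 and 726 ± 45.7 CPM, and DN100197_c1_g1 725 ± 173 and 715 ± 62.5 CPM. They were picked for ratios nearest 1. As TMM factors were higher in the erect libraries, the log2 fold changes of these 5 were between -0.13 and -0.10 rather than 0. DN103436_c2_g1 was also one of the last by rank, at a mean of 597 CPM, after DN101133_c2_g1 with 602 and DN99038_c3_g2 with 599 CPM. The first unigenes below the rank limit, DN98870_c1_g2, DN104972_c7_g2 and DN105501_c0_g1, had 593, 591 and 590.0 CPM, so the limit cut through a continuous series of levels.

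The spread between replicates was not used by the rule. The median CV of the members was 0.196 over the prostrate and 0.109 over the erect libraries, beside 0.319 and 0.186 over all tested unigenes. Members with a higher CV in the prostrate than in the erect shoots numbered 96 (71.6%), a share close to the 70.7% of all tested unigenes. Without prostrate replicate 3 the prostrate median was 0.110, and without erect replicate 1 the erect median was 0.0673. The median CV of unigenes of ranks 501 to 2000, 0.197 and 0.0888, was close to that of the members. In 17 members the CV was at most 0.1 in both types of shoots, which held for 3.93% of all tested unigenes. Of these, 13 were higher in the prostrate shoots without overlap, 1, DN101081_c1_g2, was higher in the erect shoots without overlap, and 3 overlapped. Their ratios were between 0.575 and 1.24. A low CV in both types makes overlap less likely by itself, so nothing is read from these counts. The single member was named after its values were seen.

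**Figure D4:**
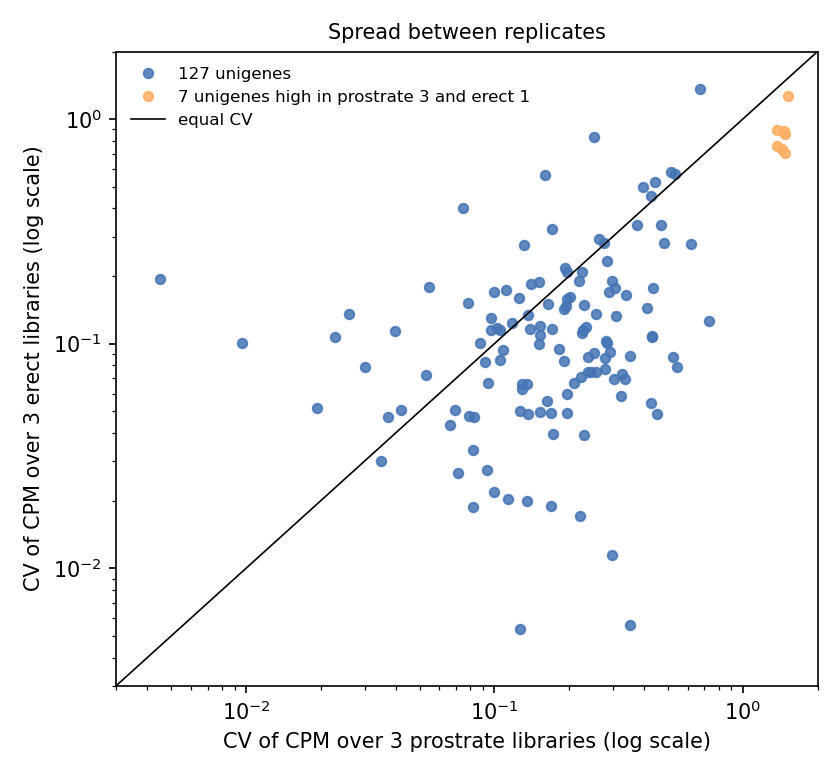
CV of CPM over the 3 erect libraries (y axis) against the CV over the 3 prostrate libraries (x axis), both on a log scale, for the 134 members. The line marks equal values, 96 members lie to its right, and the 7 orange points, high in prostrate replicate 3 and erect replicate 1, have prostrate values between 1.38 and 1.53.

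A small group of members varied far more between replicates than between types of shoots. DN102764_c2_g3, the most abundant of them, had 412, 676 and 6851 CPM in prostrate replicates 1, 2 and 3 and 8166, 2903 and 1153 CPM in erect replicates 1, 2 and 3. It was thus high in prostrate replicate 3 and in erect replicate 1 and low in the other prostrate libraries. The log2 fold change of 0.52 had a standard error of 1.08, so the difference between the types of shoots was smaller than its error, and with a library left out it lay between -0.47 without erect replicate 1 and 2.76 without prostrate replicate 3. DN101864_c1_g1 had 88.8, 104 and 2237 CPM and 1575, 175 and 168 CPM, with the largest CV of all members in the prostrate shoots, 1.53. DN102188_c3_g2 had 133, 126 and 2467 CPM and 1664, 798 and 356 CPM, and DN101112_c1_g5 had 106, 94.8 and 1893 CPM and 1711, 629 and 276 CPM. In all 4 the highest libraries of each type were prostrate replicate 3 and erect replicate 1, and erect replicate 3 was the lowest erect library.

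To count this pattern, a condition was set after these values had been seen. It required prostrate replicate 3 to have at least 5 times the CPM of both other prostrate libraries and erect replicate 1 at least 2 times that of both other erect libraries. It held for 7 members (5.22%) and for 153 of all tested unigenes (0.657%). Members were ranked by the mean over all libraries, so high values in prostrate replicate 3 and erect replicate 1 themselves raised a unigene towards the rank limit. The larger share among the members is therefore no finding. The further members were DN97201_c3_g2, DN100510_c2_g1 and DN97560_c0_g1. DN97201_c3_g2 had 241, 365 and 3816 CPM in replicates 1, 2 and 3 of the prostrate and 3742, 1732 and 669 CPM in those of the erect shoots. For DN100510_c2_g1 these levels were 194, 233 and 3384 CPM and 2443, 1082 and 508 CPM, and for DN97560_c0_g1 119, 120.5 and 2136 CPM and 2015, 696 and 319.8 CPM. Prostrate replicate 3 exceeded the next prostrate library by a factor between 10.1 and 21.5 in the 7 unigenes. Erect replicate 1 exceeded erect replicate 2 by a factor between 2.09 and 9.0 and erect replicate 3 by one between 4.68 and 9.38. Each of the 7 had a log2 fold change smaller than its standard error, which was at least 1.04. Whether a feature of these libraries or of the harvested shoots went with the pattern was not tested.

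Summed, the 7 unigenes reached 1294, 1719 and 22783 CPM in prostrate replicates 1, 2 and 3 and 21315, 8016 and 3449.7 CPM in erect replicates 1, 2 and 3. The deviations of log2(CPM + 1) from the mean of each type of shoot had a Pearson's r between 0.959 and 0.997 with those of DN102764_c2_g3 over the 6 libraries, which follows largely from the condition that chose them and is given as a description. Relative to DN102764_c2_g3, the level of DN97201_c3_g2 stayed between 45.8 and 59.7% in all libraries, and that of DN100510_c2_g1 between 29.9 and 49.4%. DN101864_c1_g1 departed most from a constant proportion, between 6.03% in erect replicate 2 and 32.6% in prostrate replicate 3. Its level was about as low in erect replicate 2 as in erect replicate 3. The 7 unigenes lay in 7 different Trinity components.

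**Figure D5:**
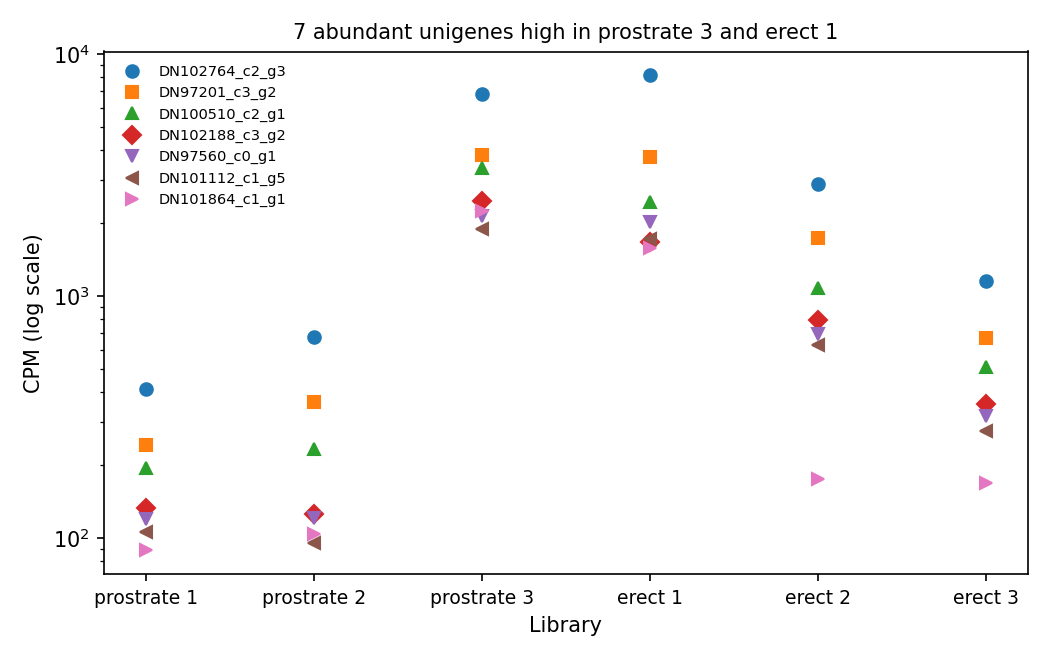
CPM on a log scale (y axis) of the 7 members that were high in prostrate replicate 3 and erect replicate 1, in each of 6 libraries (x axis), with 1 symbol for each unigene. In prostrate replicate 3 each unigene is at least 10.1 times as high as in the other prostrate libraries.

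Other members stood out in other libraries. DN100770_c0_g3 had the largest CV of all members in the erect shoots, 1.36, with 465, 1580.2 and 639 CPM in prostrate replicates 1, 2 and 3 and 2070.1, 276 and 71.9 CPM in erect replicates 1, 2 and 3. It was highest in prostrate replicate 2 and erect replicate 1, so it did not follow the 7 unigenes above. In 5 members, a group formed after their values were seen, erect replicate 3 had at least 1.5 times the CPM of both other erect libraries. The share of all tested unigenes that met this condition was not counted, so nothing is read from the number. They were DN106318_c4_g1, DN103873_c0_g2, DN103642_c0_g2, DN106380_c4_g1 and DN99038_c3_g2. DN106318_c4_g1 had 2348, 2639.9 and 750.3 CPM in replicates 1, 2 and 3 of the prostrate and 391, 480.2 and 1071 CPM in those of the erect shoots, and DN99038_c3_g2 had 1260.0, 814 and 411 and 214, 281 and 616 CPM. DN103873_c0_g2 had 1563, 1390.4 and 662 and 310.4, 447 and 817 CPM, and DN106380_c4_g1 786, 1313 and 575 and 276, 399.5 and 675 CPM. In all 5 the lowest prostrate library was replicate 3 and the lowest erect library replicate 1, the libraries in which the 7 unigenes above were highest. The pattern of DN103642_c0_g2 over the 6 libraries was most like that of DN101924_c0_g1 (Pearson's r of the same deviations 0.990) and DN106330_c6_g1 (0.989), though these varied much less. Both were picked as the closest matches over only 6 libraries, so nothing is read from these values.

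The counts of other unigenes in the components of the members were not used by the rule, although unigenes of 1 component can share reads. There were 264 such partners outside the top 150 in 101 of the 133 components, and 124 passed the filter. Their median level was 10.4 CPM, and all 264 together held 0.698% ± 0.0517 (SD, n = 3) of the prostrate counts and 0.657% ± 0.0110 (SD, n = 3) of the erect counts. As the members were chosen for their abundance, they were above most partners, but in component DN103642_c0 the erect mean of the member DN103642_c0_g2 was 318 CPM and that of the partner DN103642_c0_g1 319.9 CPM. The median log2 fold change of the tested partners was -0.04, against -0.49 for the members. The partners were far less abundant. Among all tested unigenes within the ratio limit, the median was -0.05 for ranks 2001 to 8000 and -0.0032 for lower ranks. The difference between partners and members is thus no finding about components. With edgeR's quasi-likelihood F-test and p-values adjusted after Benjamini-Hochberg over all tested unigenes, 5 partners were higher in the erect shoots (4.03%, beside 8.61% of all tested unigenes) and 6 in the prostrate shoots (4.84%, beside 6.48%). Without erect replicate 1 the counts were 0 and 3 (7 and 9 at an unadjusted p under 0.05), without prostrate replicate 1 they were 0 and 3 (7 and 12), without erect replicate 2 they were 1 and 2, without prostrate replicate 2 they were 3 and 7, without prostrate replicate 3 they were 5 and 8, and without erect replicate 3 they were 1 and 4.

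The most abundant partners did not pass the test. DN105706_c0_g4 had 505, 532 and 478 CPM in replicates 1, 2 and 3 of the prostrate and 395, 621 and 524 CPM in those of the erect shoots (adjusted p = 0.822 from edgeR). DN100770_c0_g1 stayed between 411 and 653 CPM in all libraries (adjusted p = 0.285 from edgeR), whereas the member of its component, DN100770_c0_g3, varied between 71.9 and 2070.1 CPM. In the same way DN103642_c0_g1 had 293, 253 and 349 CPM and 327, 334 and 299 CPM (adjusted p = 0.983 from edgeR) next to the variable DN103642_c0_g2. DN98136_c1_g1 had 606, 901 and 115 CPM and 84.4, 140.0 and 294 CPM (adjusted p = 0.158 from edgeR), whereas the CV of the member of its component, DN98136_c1_g2, was 0.0531 over prostrate and 0.0726 over erect libraries. Unigenes of 1 component could thus differ widely in spread.

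The partners that passed the test were named after their values were seen. DN105926_c1_g1, DN103642_c0_g5, DN101599_c1_g3, DN105761_c2_g2 and DN103367_c0_g3 were higher in the erect shoots. The most abundant of these, DN105926_c1_g1, had 19.1, 18.4 and 39.5 CPM in prostrate and 77.3, 69.3 and 66.1 CPM in erect replicates 1, 2 and 3. The fit gave a log2 fold change of 1.36 with a standard error of 0.31 and an adjusted p of 0.0236 from edgeR. The others had means below 6 CPM in both types of shoots. In the prostrate shoots the most abundant was DN102067_c2_g3, with 221 ± 43.2 against 89.5 ± 38.0 CPM (SD, n = 3), a log2 fold change of -1.42 with a standard error of 0.33 and an adjusted p of 0.0268 from edgeR. The member of that component, DN102067_c2_g1, had 873, 677 and 413 CPM in prostrate and 601, 595 and 595 CPM in erect replicates 1, 2 and 3, which overlapped.

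Estimated counts that are not whole numbers were frequent among the members. A value that differed from a whole number by more than 1e-06 occurred in 130 of the 134 (97.0%), beside 81.0% of all tested unigenes, and in all 6 libraries for 121. Members were chosen for high levels, and the share among other unigenes of like abundance was not computed, so nothing is read from this difference. Rounding changed no member by more than 0.0209% of its count. This largest change was in DN97560_c0_g1, followed by DN101864_c1_g1 and DN102188_c3_g2, all 3 of which belong to the 7 unigenes high in prostrate replicate 3 and erect replicate 1.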

How the data were processed

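RNA-seq was analysed for 3 libraries of prostrate and 3 of erect shoots of *Selaginella nipponica*. The authors assembled reads with Trinity, and the deposited values are estimated counts of each unigene, neither normalized nor pooled. The submitters' processing notes also name Trimmomatic 0.36 and HISAT2 2.1.0. Which program estimated them is not stated in the sources used here. The single table was matched to the libraries by column name.

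Counts were rounded, and CPM used library totals. The contrast was fitted on all 6 libraries with edgeR 4.0.16 (glmQLFit and glmQLFTest, R 4.3.3), TMM scaling and filterByExpr (minimum count of 10, minimum total of 15), modelling shoot type alone, with Benjamini-Hochberg adjustment over 23275 unigenes. The thresholds were an adjusted p under 0.05 and, for the stricter calls, an absolute log2 fold change above 1. The SD was taken over 3 libraries. The fits were first tested on simulated data. Figures were drawn with matplotlib 3.10.9.

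Alternatives were DESeq2 1.42.0, limma-voom (limma 3.58.1), other scalings and filters, other rank and ratio limits, the replicate number as a block, and each library left out. Members and lists were chosen with earlier results of these data known. Members named were the 12 most abundant, those with the highest, lowest and most equal ratios, the largest CV, the largest rounding, a shared component or a place next to a limit. Partners named were the 4 most abundant. Other unigenes were named after their values were seen. Sequences, annotations and transcript lengths were not used here.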

Additional observations from a re-analysis of the deposited data

How the results depend on the processing

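Leaving out 1 library at a time, the rule gave between 126 and 142 members, at least 120 of them among the 134, and with TMM-scaled CPM it gave 134, of which 132 were shared. Counts summed per component gave 137, ranking by the median 142, the top 100 gave 91, the top 200 gave 180 and a ratio limit of 2 gave 116. The median log2 fold change of the members was between -0.55 and -0.38 under the other scalings, filters, tools, the block and the left-out libraries. It was -0.33 with the dropped unigenes left out of the totals and also -0.33 without a ratio limit, both alternatives chosen after seeing the data. It was not computed for members chosen in the other ways.

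The share of counts moved with the limits. For the top 100 the prostrate and erect shares were 15.3 and 11.7%, for the top 200 they were 21.3 and 16.5%, and they were 15.4 and 13% with a ratio limit of 2. Without a ratio limit it was 17.6% in the erect shoots. Without the 7 members high in prostrate replicate 3 and erect replicate 1, an alternative added after seeing the data, it was 13.3% in the erect shoots. With a library left out the shares were between 17.7 and 18.9% and between 13.9 and 14.7%.

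With a library left out, between 4 and 45 members were lower in the erect shoots at an adjusted p under 0.05 and between 4 and 16 past both thresholds. Between 1 and 3 were higher under either condition, and between 12 and 21 were higher without overlap. The count without overlap can only stay or rise when a library is left out. Of the partners, between 0 and 5 were higher in the erect and between 2 and 8 in the prostrate shoots. Library totals gave 3 members higher in the erect shoots at an adjusted p under 0.05, no filter also 3, and limma-voom 2. Past both thresholds no filter and limma-voom gave 2 higher, and no filter gave 23 lower. The partners higher in the erect and prostrate shoots were 9 and 13 without a filter, and 2 were higher in the erect shoots at a mean count of at least 50. The causes were not tested.

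With the replicate number as a block, 15 members were lower in the erect shoots at an adjusted p under 0.05, and 1 and 2 partners were higher in the erect and prostrate shoots. The deviations of same-numbered libraries had correlations of -0.32, 0.05 and -0.14 for numbers 1, 2 and 3. Not every library correlated best with the one of its own number. Deviations from means of only 3 libraries constrain each other, so these correlations cannot tell whether same-numbered libraries were paired. The median CV became a median SD of 0.284 for prostrate and 0.156 for erect libraries on log2(CPM + 1), which is another measure. With a library left out the median CV was between 0.110 and 0.207 for prostrate and between 0.0673 and 0.135 for erect libraries. Levels in CPM do not account for transcript length, and 3 libraries of each type limit each estimate.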

Other observations

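Beyond the 7 members, 146 unigenes outside the members had at least 5 times the CPM in prostrate replicate 3 of both other prostrate libraries and at least 2 times the CPM in erect replicate 1 of both other erect libraries. They held 0.0700, 0.0542 and 1.06% of the counts of prostrate replicates 1, 2 and 3 and 0.980, 0.185 and 0.119% of erect replicates 1, 2 and 3. The most abundant, DN99376_c2_g2, had 59.7, 51.9 and 939 CPM in prostrate and 1232, 298 and 57.8 CPM in erect replicates 1, 2 and 3. DN101775_c1_g2 had 55.6, 56.1 and 1053 CPM and 829, 65.8 and 109 CPM. With the 7 members, all 153 took 3.34% of prostrate replicate 3 and 3.11% of erect replicate 1. The condition was set after the values of the members had been seen, and the cause was not tested.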
